A study of Caenorhabditis elegans with 4 samples.

Results

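The sites described here are the 355 peaks on chromosome III in a genome-wide list of HIM-5 binding peaks from Caenorhabditis elegans. They are all rows of the deposited series-level list that name chromosome III. They number 355 of 2193 peaks in all and of 2191 on the nuclear chromosomes. No measured value entered this rule, which was set with earlier results of these data known. In chromatin immunoprecipitation followed by sequencing (ChIP-seq), DNA cross-linked to a protein is recovered with an antibody and sequenced, and a peak is a stretch in which a calling program found an excess of reads. The study had 2 ChIP replicates, made with a rabbit polyclonal antibody to HIM-5, and 2 input DNA samples, which were not analysed here. All 4 samples came from hermaphrodites of the strain fem-2(b245), genotype fem-2(b245)III, at 20 °C. No sample of another genotype is at hand as a control. The stage was given as young adult with a germ line, whereas the growth protocol describes gravid adults from synchronized batch cultures. Many whole animals were thus pooled in a sample, and binding in germ cells and in other cells cannot be told apart.

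HIM-5 is known in C. elegans as a factor needed for meiotic double-strand breaks, the cuts from which crossovers arise, above all on the X chromosome. Chromosome III is an autosome. The autosomes of C. elegans have gene-dense centres in which crossovers are rare and arms in which they are frequent. Each chromosome also has a pairing centre towards one end, where zinc-finger proteins bind and homologous chromosomes pair. The fem-2 gene, which the genotype places on chromosome III, encodes a protein phosphatase of the sex determination pathway that promotes male fates, sperm among them. Positions below are 1-based, on the WS220 build, which corresponds to ce10. Genes at the sites are not named and sequences are not shown, because a genome or annotation of that build was not used here.

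In the series list, chromosome III had 25.8 peaks per Mb, against 15.2 (X) to 24.6 (II) on the other chromosomes. Replicate 1 had 8.71 there, against 7.34 (X) to 10.80 (V), and replicate 2 had 11.46, against 7.11 (X) to 11.95 (V). Chromosome III was thus the densest in the series list alone. Most of its scores were low within their range. Scores ran from 1.62 to 65.4, with a median of 5.20 and quartiles of 3.71 and 8.31. Each score was set by the authors, its scale was not stated in any source at hand, and it serves only to rank peaks within a list. The replicate lists carry scores of another range, from 50.08 to 3100 on chromosome III. Exactly 3100 was given to 4 replicate 1 peaks and 2 replicate 2 peaks there, and peaks at it are tied. The value 3100 was also the highest score on most other chromosomes. It was not a strict ceiling, since replicate 1 reached 3102 on chromosome V and replicate 2 reached 3124 on chromosome II. Of the 355 peaks, 9 (2.54%) were among the 100 highest scores of the series list, a group that makes up 4.56% of all nuclear peaks. On the other chromosomes this share ran from 2.97% (X) to 7.24% (V). The highest score on chromosome III, 65.4, stood at rank 37 of the list. On each other chromosome the highest score lay between 133.3 (chromosome II) and 214.4 (chromosome I), and the median score between 5.31 and 6.12. Differences between chromosomes were not tested.

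The highest-scoring peak on chromosome III spanned 6508350 to 6510361, close to the middle of the chromosome. Its series score was 65.4, and the replicate peaks over it scored 961.4 in replicate 1 and 3100 in replicate 2. The next, from 5940279 to 5944068, scored 54.6, with replicate peaks of 2712 and 3019. A peak from 5550717 to 5552516 scored 49.4, with replicate peaks of 1703 and 1436. These 3 peaks lay within 1 Mb of each other in the middle region of the chromosome, and each was called in both replicate lists.

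On the right, a peak from 10214387 to 10217409 scored 40.6, with replicate peaks of 2184 and 1744. The next chromosome III peak to its right, 7085 bp away at 10224495 to 10225481, scored 34.3, with replicate peaks of 1986 and 407.3. Replicate 1 thus gave this pair of neighbours close scores, and replicate 2 gave the left one the higher score. On the left, the peak from 3862910 to 3867601 scored 35.2, and its replicate peaks stood at the tied value of 3100 in both lists. The peak from 64208 to 67308, near the left end, scored 35.0 and was met by 2 replicate 1 peaks (highest score 1524) and 3 replicate 2 peaks (897.3).

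A narrow peak from 1618905 to 1619245 stood apart from these wide sites. It was 341 bp wide with a series score of 34.7, at rank 7 of chromosome III, but its replicate peaks scored only 129.9 and 179.4. The peak at the left chromosome end, from 1 to 219, was also narrow, with a width of 219 bp and a series score of 29.3. Its replicate scores of 409.8 and 515.2 were above those at 1618905 and close to or above those of some wider sites, such as 10224495 in replicate 2 (407.3).

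The remaining peaks of the 15 with the highest scores ran from 26.1 to 31.2. Those from 833729 to 836182 (31.2), 1017302 to 1020657 (30.0) and 1301162 to 1303032 (27.8) lay on the left, and replicate 1 gave the last 2 of them 3100. Those from 7444301 to 7448075 (28.9) and 8652176 to 8654587 (28.6) lay in the middle region. Replicate 1 and 2 scores at 8652176 were 289.4 and 2543, and at 833729 they were 437.5 and 1753. The last of the 15, from 13292981 to 13293385 (26.1), had a replicate 2 peak of 260.0 and none in replicate 1, and it was the only one of the 15 not called in both. By region, 7 of the 15 lay in the left region of the chromosome, 5 in the middle and 3 in the right.

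**Figure D1:**
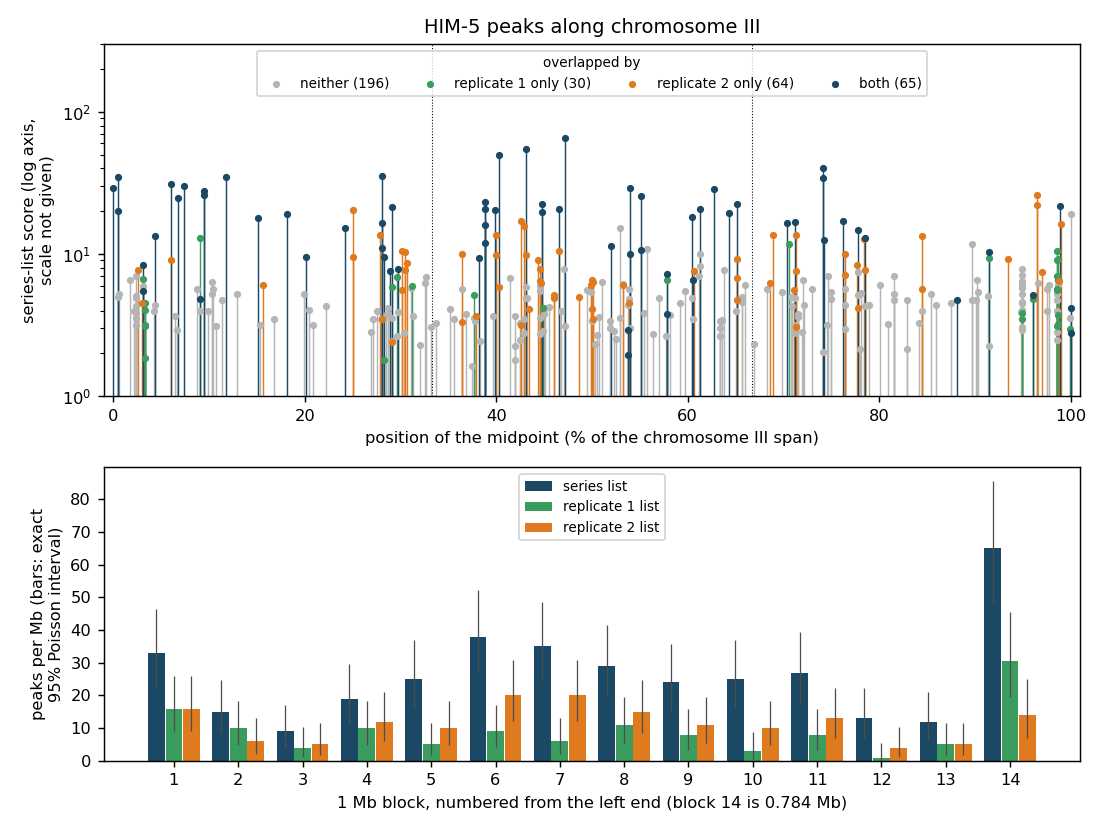
Upper panel: series-list score (log axis) of each of the 355 chromosome III peaks against its position in percent of the chromosome span, coloured by the replicate lists that overlap it; dotted lines separate 3 equal regions (left, middle, right). Lower panel: peaks per Mb in 14 blocks (1 Mb, the last one shorter) for the series list and each replicate list, with exact 95% Poisson intervals. The tallest bar is the last block (65.1 per Mb in the series list), where replicate 1 had 30.6 and replicate 2 had 14.0.

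Along the chromosome, peaks were found from end to end, in uneven numbers. The 355 peaks made 25.8 peaks per Mb (exact 95% Poisson interval 23.2 to 28.6) over a span of 13783731 bp, measured up to the rightmost peak end of the 3 lists. Cut into 3 equal regions of 4.595 Mb, the left region held 98 peaks (27.6%, exact Clopper-Pearson 95% interval 23.0% to 32.6%), the middle 132 (37.2%, 32.1% to 42.4%) and the right 125 (35.2%, 30.2% to 40.4%). Intervals here and below cover counting error only and assume independent peaks, an assumption that close neighbours break. The replicate lists differed from each other in this. Replicate 1 had 45, 34 and 41 peaks from left to right, so that its middle region held 28.3% of its 120 peaks (20.5% to 37.3%). Replicate 2 had 49, 66 and 43, with 41.8% of its 158 peaks in the middle (34.0% to 49.9%). The mean of the middle-region shares was 35.05% ± 9.50 (SD, n = 2), and the order of the 3 regions was not the same in the replicates. The regions are equal parts of the span and were not set by crossover rate or gene density.

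Counted in blocks of 1 Mb, the series list ran from 9 peaks in block 3 (2 to 3 Mb) to 65.1 per Mb in the last block, which is 0.784 Mb long and held 51 peaks. That last block was already described as dense in earlier results of these data. The other dense blocks were block 6 (38 peaks), block 7 (35) and block 1 (33). Blocks 12 and 13, just before the densest one, held 13 and 12. Replicate 1 had its highest count in the last block (24 peaks) and 1 peak in block 12. Replicate 2 had its highest counts in blocks 6 and 7, with 20 peaks in each, and 11 in the last block. Block 3 held 4 and 5 peaks in replicates 1 and 2, and block 13 held 5 in each. Block 10 held 3 and 10, and block 12 held 1 and 4. Over the 14 blocks, Spearman's rho of peak density was 0.64 between the replicates, as a description of blocks that share their DNA and mappability. The series list followed replicate 2 (rho = 0.90) more closely than replicate 1 (rho = 0.58), and this difference was not tested.

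The share of peaks called in both replicates was highest on the left and lowest on the right. It was 24.5% in the left region (24 of 98), 20.5% in the middle (27 of 132) and 11.2% in the right (14 of 125). The median scores of the regions were 5.24, 5.00 and 5.28, and the upper quartiles were 9.38, 9.11 and 7.42. The 34 peaks in runs of 6 or more with gaps under 2 kb all lay in the right region, and none was in both lists. Wide peaks were also rare on the right, where 1 of the 16 peaks of 2 kb or more lay, against 8 in the left region and 7 in the middle. Base pairs covered followed the same order in replicate 1, with 41.1 kb, 29.1 kb and 16.1 kb from left to right. In replicate 2 they were 43.8 kb, 48.0 kb and 20.7 kb. In both replicates the right region thus had the least covered sequence, 18.6% and 18.4% of the chromosome's total, and the series list had its lowest value there too (28.1%). Differences between the regions were not tested.

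Most chromosome III peaks were narrow. The median width was 271 bp (95% interval from order statistics 248 to 297 bp), the quartiles were 185 and 470 bp, and the range was 146 to 5040 bp. In the series list the other chromosomes had medians from 274 bp to 338 bp. In the replicate lists chromosome III lay within the range of the others. Its median was 321.5 bp in replicate 1, against 293 (V) to 382.5 bp (X), and 411 bp in replicate 2, against 314 (II) to 464.5 bp (X). Wider peaks tended to have higher scores across the 355 peaks (Spearman's rho = 0.70, a description, since both come from the same reads). Peaks of 2 kb or more numbered 16 (4.51%, against 4.20% of all nuclear peaks), and they made up 28.8% of the 174.6 kb covered on the chromosome. All 16 were called in both replicates, at series scores from 15.1 upwards. An overlap of 1 bp is met more easily by a wide peak.

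The widest peak spanned 2077595 to 2082634, or 5040 bp, with a series score of 18.0 at rank 36. Its replicate peaks scored 1457 in replicate 1 and 941.3 in replicate 2, with 2 peaks in each list. The next widest, from 2497015 to 2501797 (4783 bp), scored 19.0, with replicate peaks of 3100 and 1309. Both lay in block 3, the block with the fewest peaks. The other 3 of the 5 widest, at 3862910 (4692 bp), 5940279 (3790 bp) and 7444301 (3775 bp), were also among the 15 with the highest scores. The widest peaks were therefore not always those with the highest scores.

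**Figure D2:**
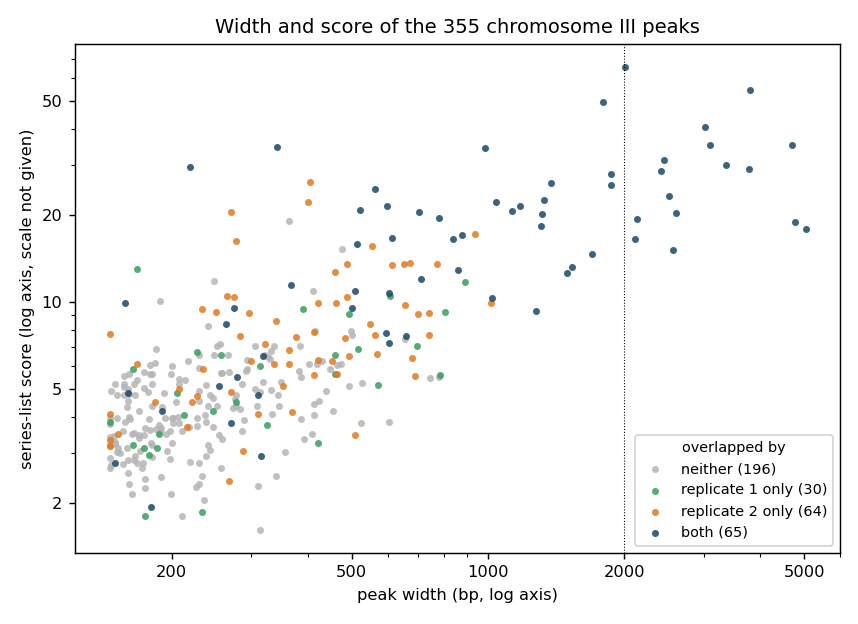
Series-list score against peak width (both log axes) for the 355 chromosome III peaks, coloured by the replicate lists that overlap each by at least 1 bp; the dotted line marks 2 kb. The 16 peaks right of the line were all called in both replicates, and the 196 peaks called in neither have medians of 4.27 (score) and 213 bp (width).

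Of the 355 peaks, 65 were overlapped by at least 1 bp in both replicate lists (18.3%, exact 95% interval 14.4% to 22.7%), against 22.4% of all nuclear peaks. Replicate 1 overlapped 95 (26.8%, against 33.5% of all nuclear peaks) and replicate 2 overlapped 129 (36.3%, against 40.1%). A further 30 were met by replicate 1 alone and 64 by replicate 2 alone, and 196 (55.2%, 49.9% to 60.5%) by neither, against 48.8% of all nuclear peaks. On the other chromosomes the share in both lists ran from 18.6% on chromosome II to 26.1% on V, and the share in neither from 39.04% on V to 55.3% on II. Chromosome III thus stood close to chromosome II in both shares. The series list may rest on the same reads as the replicate lists, so overlap with them is not independent evidence of binding, and a peak in neither list was not called there rather than shown to be unbound.

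The 65 peaks in both lists were wider and higher in score than the others, with a median width of 878 bp and a median score of 17.0. They made up 50.2% of the sequence covered. Peaks met by replicate 2 alone had a median score of 7.55 and a width of 373 bp, those met by replicate 1 alone 5.36 and 268 bp, and those in neither list 4.27 and 213 bp. Peaks found by replicate 2 alone thus ranked above those found by replicate 1 alone in the series list. With the peaks ranked by score and cut into 4 classes of near-equal size, 52 of the 89 in the highest class were in both lists (58.4%), against 5 of 89, 5 of 88 and 3 of 89 in the classes below. Replicate 2 met 87.6% of the highest class and replicate 1 met 65.2%.

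**Figure D3:**
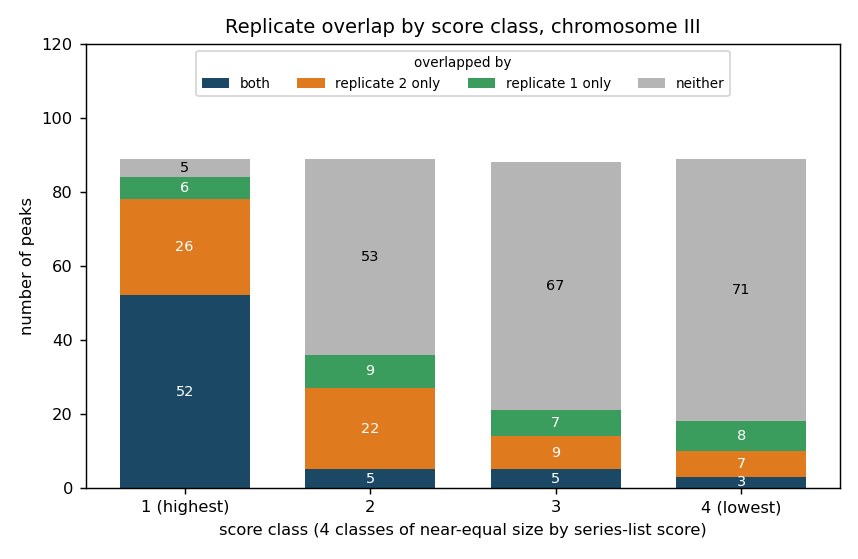
Number of chromosome III peaks in each of 4 score classes of near-equal size, from highest to lowest, stacked by the replicate lists that overlap them. Peaks in both lists number 52, 5, 5 and 3 from the highest class to the lowest, while peaks in neither list number 5, 53, 67 and 71.

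At these 65 peaks the replicate scores ran in similar order, with a Spearman's rho of 0.74 between replicates 1 and 2. The series score was nearer in rank to replicate 2 (rho = 0.81) than to replicate 1 (rho = 0.65). These are descriptions over peaks that partly share a replicate peak, with ties at 3100. Where a series peak met exactly 1 peak in each list (49 of the 65), its edges lay a median of 135 bp (start) and 130 bp (end) from those of the replicate 1 peak, and 92 bp and 107 bp from those of the replicate 2 peak. Both edges lay within 100 bp in 12 of the 49 in replicate 1 and in 13 in replicate 2.

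Of the 50 highest-scoring chromosome III peaks, 39 were in both lists, 9 in replicate 2 alone, 2 in neither and 0 in replicate 1 alone. Those not in both lists were thus all missing from replicate 1. Over all 355 peaks, replicate 1 also met fewer than replicate 2 (95 against 129). A pair of the 9 lay close together on the right, at 13292981 to 13293385 (named above) and 13296198 to 13296597, with series scores of 26.1 and 22.2 and replicate 2 scores of 260.0 and 199.6. The 2 in neither list were 7292773 to 7293248 (score 15.3) and the last peak of the chromosome, 13783368 to 13783731 (19.2). At the other extreme, the lowest-scoring peak in both lists, from 7416619 to 7416798, had a series score of 1.94 at rank 351 but replicate scores of 179.3 and 89.9. These peaks were singled out after their values were seen.

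Seen from the replicates, 100 of the 120 replicate 1 peaks on chromosome III (83.3%, exact 95% interval 75.4% to 89.5%) and 137 of the 158 replicate 2 peaks (86.7%, 80.4% to 91.6%) overlapped a series peak. Between the replicates, 79 of 120 replicate 1 peaks (65.8%, 56.6% to 74.2%) overlapped replicate 2, against 59.8% over all nuclear peaks of that list. Of the replicate 2 peaks, 75 of 158 (47.5%, 39.5% to 55.6%) overlapped replicate 1, against 49.8%. Shared replicate 1 peaks had a median score of 179.3 and the unshared 64.6, and in replicate 2 these medians were 219.3 and 77.2.

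The replicate peaks that no series peak overlapped numbered 20 in replicate 1 and 21 in replicate 2, with median scores of 71.1 and 64.6. The highest of replicate 1 lay at 3770430 to 3770847 (score 193.0), 1260345 to 1260663 (161.7) and 11784733 to 11784861 (152.9). Those of replicate 2 lay at 3346812 to 3346988 (157.1), 424737 to 424935 (88.2) and 13004373 to 13004508 (85.9). Each of these 6 peaks overlapped a peak of the other replicate. In all, 8 of the 20 and 7 of the 21 did so, and the series list left out these sites although both replicates called them.

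Gaps along chromosome III ranged from 44 bp to 299.8 kb. Of the 354 gaps between neighbouring series peaks, 125 (35.3%) were under 2 kb, and 76 of these under 500 bp. The median gap was 10.2 kb (95% interval 6.14 kb to 18.2 kb), with quartiles of 0.622 kb and 52.7 kb. Only 45 gaps reached 100 kb and 10 reached 200 kb. On the other chromosomes 37.3% (I) to 54.1% (II) of gaps were under 2 kb, and medians ran from 1211 bp on X to 15898 bp on I. In this spacing chromosome III was nearest to chromosome I. Without the peaks in runs of 6 or more neighbours, the chromosome III median gap was 16012 bp. In the replicate lists, 37.0% and 32.5% of the chromosome III gaps were under 2 kb.

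**Figure D4:**
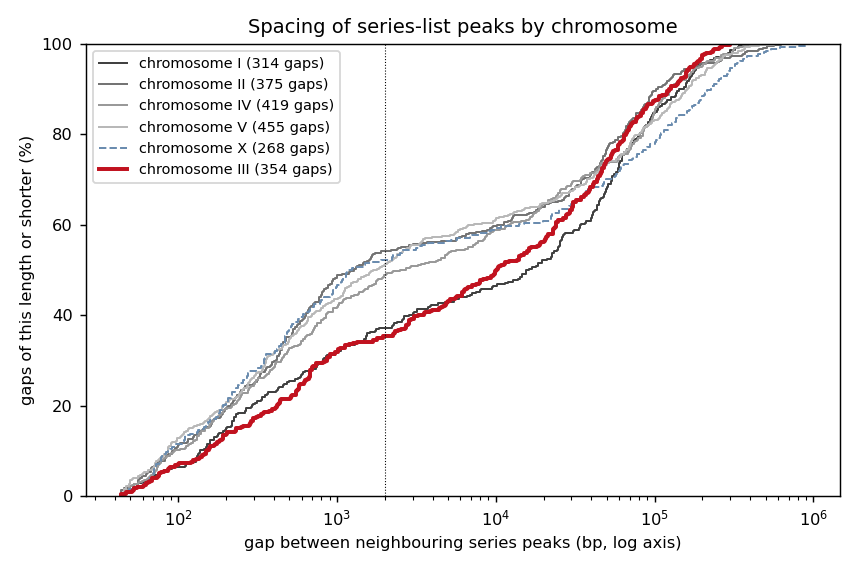
Percentage of gaps between neighbouring series peaks that are of a given length or shorter (log axis), for each nuclear chromosome; the dotted line marks 2 kb. At 2 kb the chromosome III curve stands at 35.3%, next to chromosome I at 37.3%, with the other chromosomes higher, and its longest gap is 299.8 kb.

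The longest stretch of chromosome III with no series peak ran from 1777837 to 2077594 (299.8 kb) and ended at the widest peak of the chromosome. The next ran from 3068118 to 3334295 (266.2 kb) and from 12615390 to 12874625 (259.2 kb). No replicate peak had its midpoint in any of these 3 stretches. In the series list the longest stretch on each other chromosome was longer, from 463038 bp on I to 900291 bp on X. With fewer peaks, the replicate lists had longest chromosome III gaps of 964.1 kb and 820.9 kb. On the other chromosomes these ran from 781894 bp (V) to 1608059 bp (I) in replicate 1. In replicate 2 they ran from 865235 bp (V) to 1140438 bp (II). Read depth and mappability in these stretches were not measured.

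Peaks less than 2 kb apart formed groups. There were 170 single peaks (47.9%), 38 groups of 2, 20 groups of 3 to 5 and 2 runs of 6 or more, so that 34 peaks (9.58%) lay in runs, against 18.9% of all nuclear peaks. The share in runs was 14.3% to 24.2% on the other chromosomes in the series list. In replicate 1 it was 8.33% on chromosome III, against 10.1% (I) to 20.4% (V). In replicate 2 it was 3.80%, against 0% (IV) to 15.9% (X). Of the single peaks, 23 of 170 (13.5%) were in both replicate lists, and of the peaks with a neighbour within 2 kb, 42 of 185 (22.7%).

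Both runs lay in the last block and held 17 peaks each. The first ran from 13074990 to 13085664 (10.7 kb) with scores from 2.91 to 7.90. Of its 17 peaks, 2 were met by replicate 1, none by replicate 2 and 15 by neither list. The second ran from 13584942 to 13598745 (13.8 kb) with scores from 2.48 to 10.5. Of its peaks, 10 were met by replicate 1, none by replicate 2 and 7 by neither. Replicate 1 had 4 peaks within the first run and 12 within the second, and replicate 2 had 0 in each. No peak of either run was therefore in both lists, and replicate 2 did not call the stretches at all. Without the runs, the last block held 17 peaks, or 21.7 per Mb (exact Poisson interval 12.6 to 34.7). The whole chromosome without the runs had 23.3 per Mb, which lies within that interval.

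**Figure D5:**
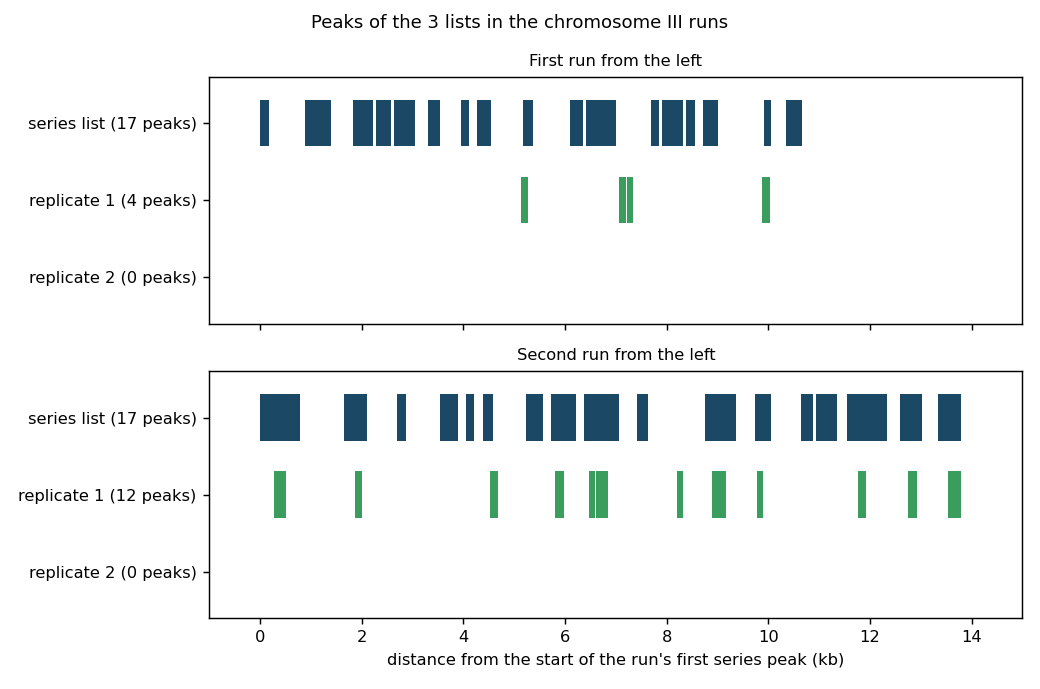
Peaks of the series list and of each replicate list within the 2 runs of chromosome III, drawn to scale as distance in kb from the start of the run's first series peak. Both runs hold 17 series peaks, replicate 1 has 4 and 12 peaks there, and replicate 2 has 0.

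Peaks met by replicate 1 alone gathered in few places: 12 of the 30 lay in the 2 runs and 8 in groups of 3 to 5, with 3 single peaks. A group of 5 from 450226 to 452484 accounted for 5 of these 8. A single replicate 1 peak from 450030 to 452481, with a score of 432.1, lay over all 5, and their series scores were at most 4.49. Peaks met by replicate 2 alone were more dispersed: 0 of 64 lay in the runs, 22 in groups of 3 to 5 and 29 were single. One such group was a set of 4 from 6897652 to 6900691, all met by replicate 2 alone. These groups were picked out after their values were seen.

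The groups of 3 to 5 differed from the runs in overlap. Of their 75 peaks, 22 were in both replicate lists (29.3%), and 13 of the 20 groups held such a peak. They were spread over the chromosome, with 6 in the left region, 7 in the middle and 7 in the right. In the group of 4 from 5353237 to 5358414, all 4 peaks were in both lists, with series scores of 12.0 to 23.4. One replicate 1 peak (5353067 to 5357374) and one replicate 2 peak (5353059 to 5357379) lay over the first 3 and reached into the fourth, which also met a further peak in each list. Over the chromosome, 19 of the 95 peaks met by replicate 1 and 18 of the 129 met by replicate 2 shared a replicate peak with another series peak. Counts of peaks and counts of separate sites thus differ.

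Both chromosome ends carried peaks. The first series peak spanned 1 to 219, with replicate peaks at 2 to 202 and 1 to 206. Near the right end, replicate 1 had a peak at 13782338 to 13782982 (score 51.8) and replicate 2 one at 13782321 to 13782941 (53.4), which met series peaks at 13782413 to 13782602 (4.18) and 13782703 to 13782852 (2.77). The last series peak, 13783368 to 13783731, was met by neither. The replicate scores were thus 409.8 and 515.2 at the left end and close to the lowest of each list at the right end. The span was itself taken from the last peak end. That position may lie short of the chromosome end or past it, since the chromosome length was not at hand.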

How the data were processed

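HIM-5 ChIP-seq was analysed from 3 deposited peak lists, 1 for each of 2 ChIP replicates and 1 for the whole series. Per the submitters' processing notes, BWA was the aligner and ce10 the build. Peaks were called with MACS (replicates) and MACS v2 (series list) on WS220, per the file headers and source columns. Caller settings, read filters, the use of input and which reads went into the series list were not stated in any source at hand. The score of each peak is the deposited value, on an unknown scale. Read depth is unknown, since the lists give no counts, so precision is limited to that of peak counts.

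Overlap meant at least 1 bp in common. A gap ran from a peak's end to the next start, and runs were 6 or more peaks with gaps under 2 kb. Blocks were 1 Mb, and a last block of at least 500 kb was kept. Shares have exact Clopper-Pearson intervals, densities exact Poisson intervals and medians order-statistic intervals, all at 95% (SciPy 1.17.1, pandas 2.3.3, Python 3.11.15). Functions were tested on simulated lists. No hypothesis test was run, because there are 2 replicate lists and 1 series list. Nothing in the labels says that the replicates came from separate cultures. Members, lists and rules were chosen with earlier results of these data known. Sites were named as the 15 highest scores, the 5 widest, the 5 longest runs (2 existed), the first and last peak, the 3 longest gaps and the 3 highest replicate peaks outside the series list. Alternatives covered the list used, overlap, runs, merging, region and span.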

Additional observations from a re-analysis of the deposited data

How the results depend on the processing

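Of 48 alternatives to 7 values, 15 stayed within the 95% interval of the value reported (for the count in runs, within 1.5 times it) and 33 moved outside, the cause not being tested unless given. The replicate lists alone gave 8.71 to 11.5 peaks per Mb (25.8 in the series list), a middle-third share of 28.3% to 41.8% (37.2%), a median gap of 18817 to 23807 bp (10162), a median width of 321.5 to 411 bp (271), 6 to 10 peaks in runs (34) and 14.0 to 30.6 per Mb in the last block (65.1). Series peaks in both lists gave 4.72 per Mb, a gap of 113888 bp, a width of 878 bp, 0 peaks in runs and 5.10 per Mb in the last block. The 50% with the higher score gave 12.9 per Mb, 32.0% in both lists, a gap of 28172 bp, a width of 459.5 bp, 7 peaks in runs and 33.2 per Mb in the last block. These subsets hold fewer peaks by construction. Merging peaks less than 10 kb apart gave 13.0 per Mb, 27.4% in both lists, a gap of 52497 bp, a width of 483 bp and 15.3 per Mb in the last block. Leaving out runs gave 21.7 per Mb in the last block and a median gap of 16012 bp, 1 of the values within its wide interval, and the last 2 Mb held 32 per Mb. The middle 50% of the span held 56.6% of peaks. When 50% of each peak had to be shared, 9.01% were in both lists, and midpoints within 200 bp left 12.1%. Runs of 3 or more held 109 peaks. The middle-third share stayed within its interval except in replicate 1 and for the wider middle part. That part takes in 50% of the span, so its higher share follows in part from its size and says little about stability. The share in both lists needs both replicates, so neither was left out there. No paired analysis was possible because no test compares groups, the inputs being left out of the analysis. Without read depth, an uncalled site cannot be told from one sequenced too little.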
